A study of Mus musculus with 9 samples.

Results

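The 54 genes described here are the collagens and a set of other genes of the extracellular matrix and its cells in mouse small intestine during acute graft-versus-host disease, the attack of transplanted immune cells on the recipient. They were chosen by name from the 48708 genes of the deposited table. Of these, 44 are collagen genes with a name of the form Col, number, a, number, and 10 are Dcn, Lum, Bgn, Sparc, Fn1, Fbn1, Eln, Lox, Postn and Vim. Vim encodes vimentin, an intermediate filament inside mesenchymal cells, and is not itself a matrix protein.

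RNA was sequenced from 9 libraries in 3 groups of 3, and every group is labelled as C57BL/6 small intestine at postnatal week 8, with acute graft-versus-host disease in all of them. RIPK3-KO mice lack Ripk3, a kinase of necroptosis, in the whole body. Villin-cre RIPK3fl/fl mice carry a floxed Ripk3 and a Cre under the Villin promoter, which is active in intestinal epithelium and not in the fibroblasts and muscle that make most matrix. WT mice are the wild type. The labels do not say whether the genotypes hold for the transplanted cells, or whether replicates are separate animals, so the p-values rest on the spread among the 3 libraries of a group, which may be technical.

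Collagens are trimers of chains that coil into a triple helix. Fibrillar collagens such as types I and III form the cables of the lamina propria and submucosa, type IV forms the sheet-like network of basement membranes beneath epithelium, vessels and muscle, and type VI forms beaded filaments near cells. Small proteoglycans such as decorin bind the fibrils, fibronectin and periostin connect them to cells, and elastin on a fibrillin scaffold gives recoil. Fibroblasts and smooth muscle cells are the main sources in the gut wall, while a few collagens, such as types VII and XVIII, are also made by epithelia.

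Total counts ranged from 25375499 to 41038990 per library, and 3 counts were worth 0.0708 to 0.127 CPM, the count scaled to the size of its library, a floor for counting error only. Ripk3 had 3.61 ± 0.242 CPM in RIPK3-KO, 6.45 ± 0.911 CPM in Villin-cre RIPK3fl/fl and 113 ± 0.979 CPM in WT libraries (SD, n = 3 each), so it was low in both groups labelled as deleted. The labels do not state which exons were removed. The RIPK3-KO libraries also differed in sex-linked genes, with Xist, the RNA of the inactive X chromosome, at 276 ± 5.75 CPM in RIPK3-KO, 7.50 ± 0.415 CPM in Villin-cre RIPK3fl/fl and 8.46 ± 1.99 CPM in WT libraries. Ddx3y, on the Y chromosome, had 0.477 ± 0.213, 38.1 ± 4.58 and 39.8 ± 1.72 CPM in the same order of groups. Sex cannot be told apart from the RIPK3-KO genotype in these libraries, which touches every RIPK3-KO comparison and most directly the 3 members on chromosome X, Bgn, Col4a5 and Col4a6. Genes of smooth muscle, fat and exocrine pancreas also differed between the groups, and their values are given after the members.

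The matrix genes were higher in RIPK3-KO libraries than in either of the other groups. Summed over all 54 members, they reached 1873, 2085 and 2105 CPM in RIPK3-KO, 1305, 1334 and 1352 CPM in Villin-cre RIPK3fl/fl and 1294, 1289 and 1280 CPM in WT libraries. The RIPK3-KO libraries did not overlap with the others, and the sum was 1.57 times WT in RIPK3-KO and 1.03 times WT in Villin-cre RIPK3fl/fl. Members made up between 0.122% and 0.217% of all counts in a library. In tissue RNA, more cells of a type and more RNA per cell cannot be told apart.

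Of the 54 members, 48 had enough counts to be tested, and a gene is said to have been called, or to have risen or fallen, where its edgeR quasi-likelihood p, adjusted over all 16539 genes tested, was under 0.05. In RIPK3-KO against WT, 32 members rose, 3 fell and 13 were not called, while 27.3% of all tested genes were called higher and 28.1% lower. The 3 libraries of RIPK3-KO lay above all WT libraries in 30 of the 48 and below them in 4, against 31.6% and 31.9% of all tested genes. The median log2 fold change of the tested members was 0.59, against 0.01 over all tested genes, and 12 of the called members were at least 2-fold higher. In Villin-cre RIPK3fl/fl against WT, 18 members rose, 5 fell and 25 were not called, beside 27.2% and 28.4% of all tested genes called higher and lower. Called in either direction were 35 of the 48 in RIPK3-KO, where 55.4% of all tested genes were called, and 23 of the 48 in Villin-cre RIPK3fl/fl, where 55.6% were. The Villin-cre RIPK3fl/fl median was 0.18, against 0.02 over all genes, and 20 members lay above and 9 below WT without overlap, against 30.0% and 31.4% of all tested genes. Both comparisons use the same WT libraries. In RIPK3-KO against Villin-cre RIPK3fl/fl, 25 members were higher, 7 lower and 16 not called, beside 16.6% and 15.1% of all tested genes (31.7% in either direction), with a median of 0.38 against 0.01. Libraries did not overlap in 25 higher and 8 lower members, against 21.5% and 19.2% of all tested genes.

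By all 3 tests, the largest set of members rose with the whole-body deletion only. Col1a1, Col1a2, Col3a1, Col4a1, Col4a2, Col5a1, Col5a3, Eln, Fn1, Lum, Sparc and Vim, 12 in all, were higher in RIPK3-KO than in both other groups and were not called between Villin-cre RIPK3fl/fl and WT. That last comparison was called for Col4a1 in 5, Col4a2 in 3, Col5a3 in 1, Lum in 3 and Vim in 4 of 18 other ways of fitting. A set of 8, Col14a1, Col15a1, Col6a1, Col6a2, Col6a3, Col8a2, Dcn and Postn, rose in both deletions and stood higher in RIPK3-KO than in Villin-cre RIPK3fl/fl. By contrast, Col23a1, Col27a1, Col6a5 and Col7a1 rose in both and were lower in RIPK3-KO than in Villin-cre RIPK3fl/fl. Col20a1, Col6a4 and Col9a2 were higher in Villin-cre RIPK3fl/fl than in both other groups and not called between RIPK3-KO and WT. Lox and Col18a1 were lower in both deletions than in WT, and higher in RIPK3-KO than in Villin-cre RIPK3fl/fl. The share of all tested genes with each of these patterns was not counted, so no pattern can be called particular to the members. By single tests, RIPK3-KO was called higher than WT in 27.3% and higher than Villin-cre RIPK3fl/fl in 16.6% of all tested genes. Single libraries decided some of the calls between the deletions: without RIPK3-KO replicate 2 those of Bgn (adjusted p = 0.0569), Col18a1 (0.0501), Col6a3 and Col20a1 were lost, without RIPK3-KO replicate 3 those of Col6a3, Col20a1 and Col9a2, without Villin-cre RIPK3fl/fl replicate 1 those of Col1a1 and Col9a2, and without Villin-cre RIPK3fl/fl replicate 3 those of Col20a1 and Col9a2. Col9a2 averaged under 1 CPM in every group and also lost this call without RIPK3-KO replicate 1, Villin-cre RIPK3fl/fl replicate 2 or WT replicate 3, and its call in Villin-cre RIPK3fl/fl against WT without WT replicate 1. Over the 18 fits the adjusted p between the deletions ranged from 0.00477 to 0.0569 for Bgn, 0.000116 to 0.0501 for Col18a1, 0.000107 to 0.0643 for Col6a3, 0.00737 to 0.112 for Col20a1, 4.56e-07 to 0.0575 for Col1a1 and, in 17 fits, 0.0175 to 0.133 for Col9a2.

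**Figure D1:**
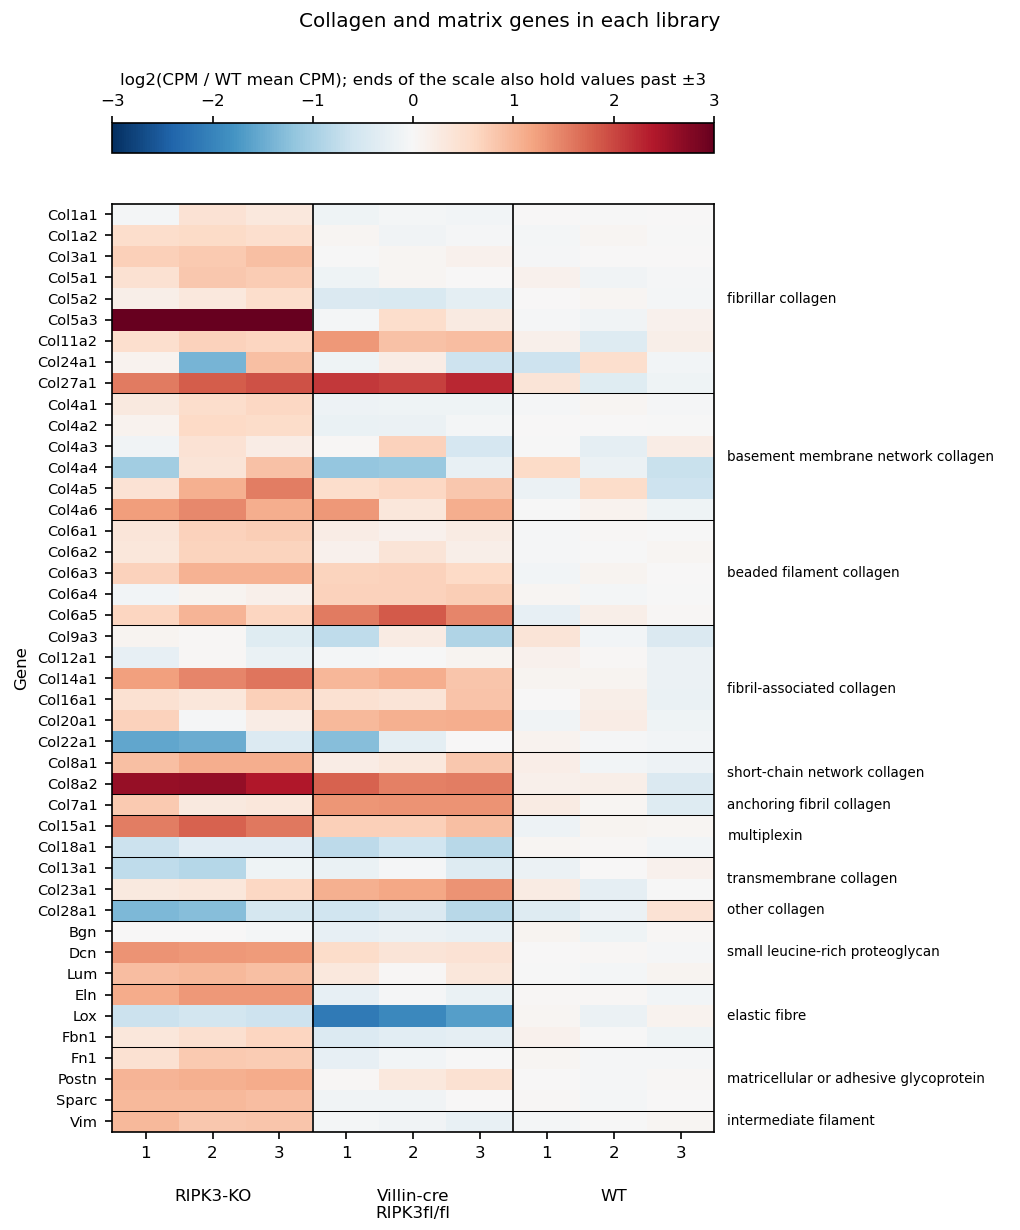
Level of the collagen and matrix genes with a mean of at least 0.5 CPM and a test, as log2 of the CPM over the mean CPM of the WT libraries (colour), in each library (columns, replicate numbers below) and ordered by the role of the product. The RIPK3-KO columns are red for most fibrillar collagens, small proteoglycans and glycoproteins, Col27a1 and Col7a1 are reddest in Villin-cre RIPK3fl/fl, and Lox is blue in both deletions.

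The fibrillar collagens rose with the whole-body deletion. Of the 10 tested, 9 rose in RIPK3-KO against WT, none fell, and Col24a1 (log2 fold change 0.16, SE 0.56) was not called. In Villin-cre RIPK3fl/fl against WT, 2 rose, 1 fell and 7 were not called. Called higher were 90% in RIPK3-KO and 20% in Villin-cre RIPK3fl/fl, beside 27.3% and 27.2% of all tested genes. Col3a1, the chain of the type III homotrimer of pliable tissues, had 222, 234 and 252 CPM in RIPK3-KO, 134, 140 and 147 CPM in Villin-cre RIPK3fl/fl and 132, 137 and 136 CPM in WT libraries. All RIPK3-KO values lie above all others, while the other 2 groups overlap. The log2 fold change was 0.81 (SE 0.05, edgeR adjusted p = 9.65e-13) in RIPK3-KO and 0.06 (SE 0.05, adjusted p = 0.353) in Villin-cre RIPK3fl/fl against WT. Col1a2, the second chain of type I collagen, had 103, 106 and 101 CPM in RIPK3-KO, 74.4, 66.9 and 70.0 CPM in Villin-cre RIPK3fl/fl and 69.0, 74.7 and 71.1 CPM in WT libraries. It rose by 0.53 (SE 0.05, adjusted p = 7.73e-09) in RIPK3-KO against WT, with the other 2 groups overlapping.

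Col1a1, the main chain of type I collagen, had a smaller fold change. Its levels were 54.6, 76.7 and 70.7 CPM in RIPK3-KO, 51.6, 54.4 and 53.2 CPM in Villin-cre RIPK3fl/fl and 57.3, 55.6 and 56.5 CPM in WT libraries. RIPK3-KO replicate 1 lies below every WT library, and the other 2 RIPK3-KO libraries lie above. The log2 fold change against WT was 0.25 (SE 0.09, adjusted p = 0.0236). That call was lost in 6 of 18 other ways of fitting, among them without RIPK3-KO replicate 2 (0.15, adjusted p = 0.136), without RIPK3-KO replicate 3 (0.22, adjusted p = 0.0904) and without any single WT library, over a range of adjusted p from 6.23e-06 to 0.136.

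Col5a3, a type V chain, had the largest change of any member. It had 28.5, 34.8 and 33.8 CPM in RIPK3-KO, 3.05, 4.58 and 3.87 CPM in Villin-cre RIPK3fl/fl and 3.13, 2.96 and 3.50 CPM in WT libraries. The RIPK3-KO libraries stand far above both other groups, which overlap. The level was 10.1-fold that of WT (log2 fold change 3.34, SE 0.13, adjusted p = 5.13e-17) and 8.41-fold that of Villin-cre RIPK3fl/fl (3.07, SE 0.13, adjusted p = 6.11e-16). The other type V chains, which help to start type I fibrils, had smaller fold changes. Col5a1 averaged 36.3 ± 4.57 CPM in RIPK3-KO, 22.4 ± 1.56 CPM in Villin-cre RIPK3fl/fl and 22.7 ± 1.75 CPM in WT libraries. Col5a2 had 30.3, 32.9 and 38.4 CPM in RIPK3-KO, 19.7, 19.5 and 21.7 CPM in Villin-cre RIPK3fl/fl and 26.7, 27.8 and 25.4 CPM in WT libraries. The 3 groups do not overlap for Col5a2, with RIPK3-KO highest (0.35 against WT, SE 0.08, adjusted p = 0.00117) and Villin-cre RIPK3fl/fl lowest (-0.39 against WT, SE 0.09, adjusted p = 0.000579).

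Col27a1, a fibrillar collagen best known from cartilage, rose in both deletions, to a higher level in the epithelial one. It had 12.2, 14.6 and 15.6 CPM in RIPK3-KO, 18.2, 17.1 and 19.9 CPM in Villin-cre RIPK3fl/fl and 5.47, 3.22 and 3.78 CPM in WT libraries. No group overlaps another. The log2 fold changes against WT were 1.76 (SE 0.15, adjusted p = 5.99e-10) in RIPK3-KO and 2.14 (SE 0.15, adjusted p = 2.41e-11) in Villin-cre RIPK3fl/fl. RIPK3-KO was lower than Villin-cre RIPK3fl/fl by a log2 fold change of -0.38 (SE 0.14, adjusted p = 0.0361), a call lost in 5 of 18 other fits, 4 of which left out 1 library (RIPK3-KO replicate 1 or 2, or Villin-cre RIPK3fl/fl replicate 1 or 3), with adjusted p from 0.0126 to 0.14. Col11a2, a type XI chain, rose by 0.61 (SE 0.24, adjusted p = 0.0344) in RIPK3-KO and 1.04 (SE 0.24, adjusted p = 0.000787) in Villin-cre RIPK3fl/fl against WT, at a mean of under 4 CPM in each group. The RIPK3-KO call of Col11a2 was lost in 5 of 18 other fits (adjusted p from 0.0214 to 0.161), among them without RIPK3-KO replicate 2 or 3 or WT replicate 2. Col11a1 averaged under 0.6 CPM in each group, and its call in RIPK3-KO (1.62, SE 0.68, adjusted p = 0.0461) was lost in 10 of 17 other fits, with adjusted p from 0.0256 to 0.308, among them without RIPK3-KO replicate 2 or 3, Villin-cre RIPK3fl/fl replicate 3 or any single WT library.

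Promoters of 4 members are shown to set side by side genes with different patterns of change: Col3a1 and Col5a3 rose with the whole-body deletion only, Col8a2 rose in both deletions and more in RIPK3-KO, and Col7a1 rose more in Villin-cre RIPK3fl/fl. Each is the 250 bases before the RefSeq start of the gene on GRCm38.p6, 5′ to 3′ on the strand of the gene, and capitals mark matches on either strand, with overlapping matches run together. The CCAAT box was searched by the letters of its name. The GC box was searched as GGGCGG, and matches to it can overlap each other. The TATA box was searched as TATAAA, in that order of bases. The AP-1 site was searched as TGANTCA, where N is any base.
Col3a1 (chr1:45311288-45311537, plus strand, the only one of the 4 with TATAAA): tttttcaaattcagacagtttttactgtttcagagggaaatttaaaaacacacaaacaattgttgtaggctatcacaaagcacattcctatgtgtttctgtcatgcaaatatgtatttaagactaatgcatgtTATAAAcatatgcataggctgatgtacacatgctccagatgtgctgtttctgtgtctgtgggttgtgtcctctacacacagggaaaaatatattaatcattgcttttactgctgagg
Col5a3 (chr9:20815068-20815317, minus strand, with CCAAT and GC boxes): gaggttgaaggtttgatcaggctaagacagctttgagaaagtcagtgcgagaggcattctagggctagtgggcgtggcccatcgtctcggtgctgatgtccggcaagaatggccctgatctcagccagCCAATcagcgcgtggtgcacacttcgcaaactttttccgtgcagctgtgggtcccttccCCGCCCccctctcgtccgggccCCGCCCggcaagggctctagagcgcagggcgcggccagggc
Col8a2 (chr4:126286544-126286793, plus strand, with GC boxes alone): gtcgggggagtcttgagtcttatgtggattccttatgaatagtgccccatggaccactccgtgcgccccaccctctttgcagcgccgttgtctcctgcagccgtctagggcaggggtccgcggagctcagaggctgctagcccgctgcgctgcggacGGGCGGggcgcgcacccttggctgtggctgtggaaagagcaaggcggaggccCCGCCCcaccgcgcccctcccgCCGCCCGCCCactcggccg
Col7a1 (chr9:108953336-108953585, plus strand, with CCAAT and a GC box): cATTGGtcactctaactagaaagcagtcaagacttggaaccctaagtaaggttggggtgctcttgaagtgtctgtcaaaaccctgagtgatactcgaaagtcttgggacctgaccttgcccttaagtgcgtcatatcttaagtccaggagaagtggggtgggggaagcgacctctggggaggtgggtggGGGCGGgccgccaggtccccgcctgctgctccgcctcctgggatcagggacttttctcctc
RefSeq windows were found for 40 of the 54 members, 44 windows in all. CCAAT was in 31.8% of these and in 33.8% of all 32851 promoter windows of this length, and the GC box in 54.5% and 32.7%. TATAAA was in 15.9% of the member windows and 12.4% of all, and the AP-1 letters in 2.27% and 6.75%. A match is a description of the letters and not of a factor's binding.

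**Figure D2:**
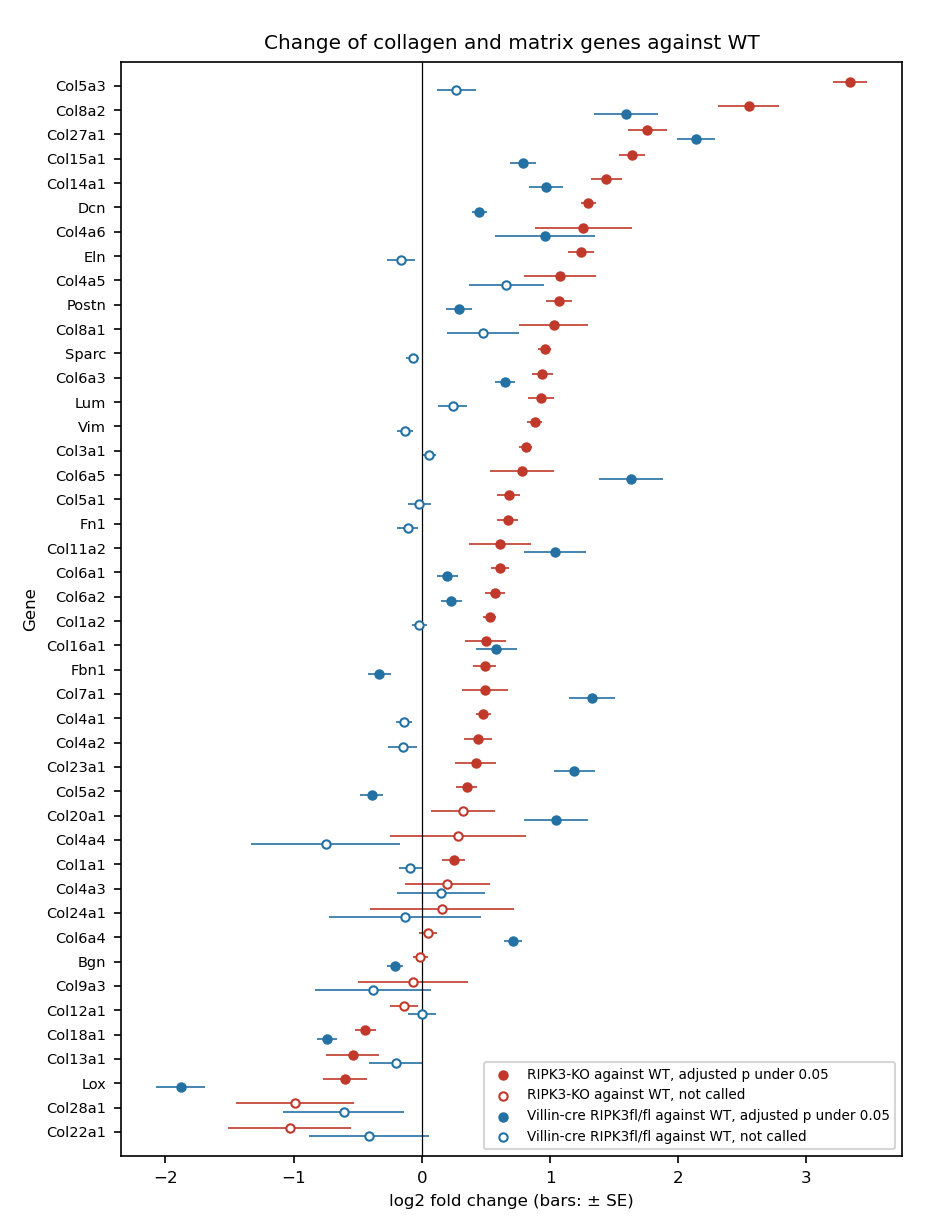
Log2 fold change against WT (horizontal axis, bars give ± SE) of each gene with a mean of at least 0.5 CPM in RIPK3-KO (red) and Villin-cre RIPK3fl/fl (blue), ordered by the RIPK3-KO value, with filled points for an adjusted p under 0.05. Col5a3 stands apart at 3.34 in RIPK3-KO and 0.27 in Villin-cre RIPK3fl/fl. Col6a4, Col6a5, Col7a1, Col20a1, Col23a1 and Col27a1 are among the genes with their blue point to the right of the red one.

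Of the basement membrane network collagens, 4 of 6 were called higher and none lower in RIPK3-KO, against 1 of 6 higher and none lower in Villin-cre RIPK3fl/fl. That is 66.7% and 16.7% called higher, beside 27.3% and 27.2% of all tested genes. Col4a1 and Col4a2 encode the chains of the main type IV trimer and lie head to head on chromosome 8, with RefSeq start sites 21 bases apart. Col4a1 had 154, 183 and 193 CPM in RIPK3-KO, 113, 116 and 116 CPM in Villin-cre RIPK3fl/fl and 124, 132 and 123 CPM in WT libraries. Col4a2 had 93.9, 132 and 128 CPM in RIPK3-KO, 75.6, 76.6 and 83.1 CPM in Villin-cre RIPK3fl/fl and 86.8, 87.2 and 86.3 CPM in WT libraries. For both genes the RIPK3-KO libraries are above and the Villin-cre RIPK3fl/fl libraries below the WT libraries, without overlap. Against WT, the RIPK3-KO log2 fold changes were 0.48 (SE 0.06, adjusted p = 7.52e-07) for Col4a1 and 0.44 (SE 0.11, adjusted p = 0.00609) for Col4a2, and the Villin-cre RIPK3fl/fl values of -0.14 and -0.15 missed the threshold (adjusted p = 0.0703 and 0.301). The mean log2 ratio of Col4a1 to Col4a2 counts was 0.59 ± 0.12 in RIPK3-KO, 0.55 ± 0.06 in Villin-cre RIPK3fl/fl and 0.54 ± 0.05 in WT libraries (SD, n = 3 each), and the differences from WT of 0.05 and 0.01 were within the spread between libraries (exact permutation p = 0.7 and 1). Col4a5 and Col4a6, a second head-to-head pair on chromosome X, rose by 1.08 (SE 0.28, adjusted p = 0.00258) and 1.26 (SE 0.38, adjusted p = 0.00652) in RIPK3-KO against WT from levels of under 2 CPM on average in WT. For Col4a5, RIPK3-KO replicate 1 (2.45 CPM) lay below WT replicate 2 (2.64 CPM). For this X-linked pair, sex cannot be told apart from the RIPK3-KO genotype. Col4a6 also rose by 0.96 (SE 0.39, adjusted p = 0.0389) in Villin-cre RIPK3fl/fl, a call lost in 11 of 18 other fits (adjusted p from 0.0141 to 0.136), 6 of which each left out 1 library (RIPK3-KO replicate 2, Villin-cre RIPK3fl/fl replicate 1 or 3, or any WT library). Col4a3 and Col4a4, the chains known from the kidney filter, stayed under 2 CPM on average in every group and were not called in any comparison.

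The beaded filament collagens rose in both deletions, 4 of 6 in RIPK3-KO and 5 of 6 in Villin-cre RIPK3fl/fl against WT, with none lower. That is 66.7% and 83.3% called higher, beside 27.3% and 27.2% of all tested genes. Col6a3, the large chain of type VI, had 41, 52.2 and 51.7 CPM in RIPK3-KO, 40.3, 40.5 and 38.1 CPM in Villin-cre RIPK3fl/fl and 23.7, 26.6 and 25.4 CPM in WT libraries. Both deletions lie above WT without overlap, by 0.94 (SE 0.08, adjusted p = 4.78e-10) in RIPK3-KO and 0.65 (SE 0.08, adjusted p = 4.18e-07) in Villin-cre RIPK3fl/fl. Its partners Col6a1 and Col6a2 rose by 0.61 and 0.57 in RIPK3-KO (adjusted p = 3.82e-07 and 8.56e-06) and by 0.20 and 0.23 in Villin-cre RIPK3fl/fl (adjusted p = 0.0306 and 0.0261). The Villin-cre RIPK3fl/fl calls of this pair were lost in 6 and 3 of 18 other fits, with adjusted p from 0.00262 to 0.109 for Col6a1 and 0.00256 to 0.146 for Col6a2. For Col6a1 these left out Villin-cre RIPK3fl/fl replicate 1 or 3 or any single WT library, beside limma-voom, and for Col6a2 Villin-cre RIPK3fl/fl replicate 2 or WT replicate 1 or 2.

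Of the alternative type VI chains, which can take the place of Col6a3, Col6a4 and Col6a5 followed another order. Col6a6 averaged 0.342 CPM in RIPK3-KO, 0.148 CPM in Villin-cre RIPK3fl/fl and 0.191 CPM in WT libraries, and was not called in any comparison. Col6a4 had 36.1, 40.7 and 42.4 CPM in RIPK3-KO, 61.6, 62.2 and 64.4 CPM in Villin-cre RIPK3fl/fl and 40.2, 36.9 and 38.0 CPM in WT libraries. The Villin-cre RIPK3fl/fl libraries stand above the overlapping others, by 0.71 against WT (SE 0.07, adjusted p = 2.21e-09), and RIPK3-KO was at -0.66 against them (SE 0.07, adjusted p = 1.54e-08). Col6a5 had 2.05, 2.67 and 2.08 CPM in RIPK3-KO, 3.89, 4.73 and 3.66 CPM in Villin-cre RIPK3fl/fl and 1.11, 1.5 and 1.35 CPM in WT libraries. No group overlaps another, with log2 fold changes against WT of 0.78 (SE 0.25, adjusted p = 0.0103) in RIPK3-KO and 1.63 (SE 0.25, adjusted p = 4.45e-06) in Villin-cre RIPK3fl/fl. The RIPK3-KO call was lost without RIPK3-KO replicate 2 or WT replicate 1, over a range of adjusted p from 0.00624 to 0.0567.

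Of the 8 fibril-associated collagens tested, 2 rose in RIPK3-KO and 4 in Villin-cre RIPK3fl/fl against WT, and none fell. The RIPK3-KO share called higher, 25%, was near the 27.3% of all tested genes. In Villin-cre RIPK3fl/fl the share called higher was 50%, beside 27.2% of all tested genes. Of all tested genes, 28.1% were called lower in RIPK3-KO and 28.4% in Villin-cre RIPK3fl/fl. Col14a1, a fibril-associated collagen, had 15.1, 17.8 and 19.4 CPM in RIPK3-KO, 12.8, 13.6 and 11.4 CPM in Villin-cre RIPK3fl/fl and 6.79, 6.77 and 5.65 CPM in WT libraries. The 3 groups are in that order without overlap, at 1.44 (SE 0.12, adjusted p = 2.45e-10) in RIPK3-KO and 0.97 (SE 0.13, adjusted p = 4.37e-07) in Villin-cre RIPK3fl/fl against WT. Col12a1, a close relative, was called in no comparison, with a log2 fold change of -0.14 (SE 0.11, adjusted p = 0.306) in RIPK3-KO. Col20a1 had 2.93, 1.77 and 2.13 CPM in RIPK3-KO, 3.59, 3.81 and 3.87 CPM in Villin-cre RIPK3fl/fl and 1.68, 2.11 and 1.66 CPM in WT libraries. Only the Villin-cre RIPK3fl/fl libraries stand apart (1.05 against WT, SE 0.25, adjusted p = 0.000815). Col16a1 was the other to rise in RIPK3-KO (0.50, SE 0.16, adjusted p = 0.0095), a call lost without RIPK3-KO replicate 3 or WT replicate 3, with adjusted p from 0.00435 to 0.0743.

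Col8a2, a short-chain collagen that forms hexagonal networks, had the second largest rise in RIPK3-KO. Its levels were 5.46, 5.55 and 4.72 CPM in RIPK3-KO, 3.00, 2.52 and 2.55 CPM in Villin-cre RIPK3fl/fl and 0.992, 1.01 and 0.659 CPM in WT libraries. The groups do not overlap, at 5.87-fold (log2 fold change 2.55, SE 0.24, adjusted p = 1.25e-09) and 3.01-fold (1.59, SE 0.25, adjusted p = 5.96e-06) over WT in RIPK3-KO and Villin-cre RIPK3fl/fl. Its partner Col8a1 rose by 1.03 (SE 0.27, adjusted p = 0.00214) in RIPK3-KO. Col7a1, the anchoring fibril collagen that ties epithelial basement membrane to the stroma, had 6.16, 4.38 and 4.53 CPM in RIPK3-KO, 8.88, 9.08 and 9.08 CPM in Villin-cre RIPK3fl/fl and 4.24, 3.71 and 2.74 CPM in WT libraries. Villin-cre RIPK3fl/fl stands highest (1.33 against WT, SE 0.18, adjusted p = 6.22e-07), and the RIPK3-KO value against WT was 0.49 (SE 0.18, adjusted p = 0.0225). The RIPK3-KO call was lost without RIPK3-KO replicate 1 or WT replicate 3, with adjusted p from 0.0114 to 0.171 over 18 fits.

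The multiplexins, basement membrane collagens with long sugar chains, moved in opposite directions. Col15a1, found around muscle and vessels, had 27.7, 32.8 and 28.9 CPM in RIPK3-KO, 15.7, 15.9 and 17.9 CPM in Villin-cre RIPK3fl/fl and 8.66, 10.2 and 9.99 CPM in WT libraries. Col18a1, the source of endostatin and a product of epithelium among others, had 36.1, 45.1 and 44.5 CPM in RIPK3-KO, 32.9, 37.6 and 31.7 CPM in Villin-cre RIPK3fl/fl and 58.7, 58.3 and 53.3 CPM in WT libraries. Col15a1 rose by 1.64 (SE 0.10, adjusted p = 3.47e-13) in RIPK3-KO and 0.79 (SE 0.10, adjusted p = 5.11e-07) in Villin-cre RIPK3fl/fl, while Col18a1 fell by 0.44 (SE 0.08, adjusted p = 5.79e-05) and 0.74 (SE 0.08, adjusted p = 6.07e-08) on the log2 scale. For Col18a1 both deletions lie below WT, and they overlap each other.

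The transmembrane collagens Col13a1 and Col23a1 were low. Col23a1 had 5.38, 5.60 and 6.71 CPM in RIPK3-KO, 9.26, 9.80 and 11.1 CPM in Villin-cre RIPK3fl/fl and 5.17, 3.64 and 4.37 CPM in WT libraries, with Villin-cre RIPK3fl/fl apart from both others (1.19 against WT, SE 0.16, adjusted p = 5.94e-07). Its RIPK3-KO rise of 0.42 (SE 0.16, adjusted p = 0.0267) was lost without RIPK3-KO replicate 3 or WT replicate 2 or 3, with adjusted p from 0.0126 to 0.158. Col13a1 had 2.56, 2.38 and 3.92 CPM in RIPK3-KO, 3.76, 4.20 and 3.30 CPM in Villin-cre RIPK3fl/fl and 3.82, 4.36 and 4.75 CPM in WT libraries. RIPK3-KO replicate 3 overlaps with WT, and the call of -0.54 (SE 0.21, adjusted p = 0.0334) was lost in 6 of 18 other fits, with adjusted p from 0.00504 to 0.151, including without RIPK3-KO replicate 1 (adjusted p = 0.114) and without RIPK3-KO replicate 2 (adjusted p = 0.151), WT replicate 2 or WT replicate 3. The 6 members left untested, Col26a1, Col10a1, Col25a1, Col9a1, Col2a1 and Col17a1, had between 23 and 62 counts over all 9 libraries.

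The 10 members that are not collagens all differed between the deletions. In RIPK3-KO against Villin-cre RIPK3fl/fl, 10 of 10 were called higher, without overlap between libraries, beside 16.6% of all tested genes. Against WT, 8 rose, 1 fell and 1 was not called in RIPK3-KO, and 2 rose, 3 fell and 5 were not called in Villin-cre RIPK3fl/fl. In RIPK3-KO that is 80% higher and 10% lower, beside 27.3% and 28.1% of all tested genes. In Villin-cre RIPK3fl/fl, 20% higher and 30% lower were near the 27.2% and 28.4% of all tested genes. The summed level of the 10 members was 799 ± 8.61 CPM in RIPK3-KO, 444 ± 6.45 CPM in Villin-cre RIPK3fl/fl and 461 ± 11.3 CPM in WT libraries (SD, n = 3 each).

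Among the small leucine-rich proteoglycans, which bind collagen fibrils and set their width, Dcn (decorin) had 120, 116 and 114 CPM in RIPK3-KO, 69.3, 61.3 and 63.4 CPM in Villin-cre RIPK3fl/fl and 47.3, 48.5 and 46.0 CPM in WT libraries. The groups are in that order without overlap, with 1.30 (SE 0.06, adjusted p = 3.1e-16) in RIPK3-KO and 0.45 (SE 0.06, adjusted p = 3.65e-07) in Villin-cre RIPK3fl/fl against WT. Lum (lumican) had 20.4, 21.1 and 20 CPM in RIPK3-KO, 13.4, 11 and 13.7 CPM in Villin-cre RIPK3fl/fl and 10.6, 10.3 and 11.4 CPM in WT libraries, and rose by 0.93 (SE 0.10, adjusted p = 2.74e-08) in RIPK3-KO. Bgn (biglycan), the close relative of decorin on chromosome X, had 68.2, 69.1 and 65.1 CPM in RIPK3-KO, 57.7, 60.4 and 58.2 CPM in Villin-cre RIPK3fl/fl and 72.2, 62.1 and 70.2 CPM in WT libraries. Bgn thus overlapped between RIPK3-KO and WT (-0.01, SE 0.06, adjusted p = 0.855) and fell by 0.21 (SE 0.06, adjusted p = 0.00473) in Villin-cre RIPK3fl/fl against WT.

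The elastic fibre genes also parted. Eln (elastin) had 22.4, 25.3 and 25.3 CPM in RIPK3-KO, 8.67, 10 and 9.01 CPM in Villin-cre RIPK3fl/fl and 10.6, 10.5 and 9.78 CPM in WT libraries. Fbn1 (fibrillin, the scaffold of elastic fibres) had 29.4, 32.3 and 36.0 CPM in RIPK3-KO, 17.5, 18.7 and 19.2 CPM in Villin-cre RIPK3fl/fl and 25.5, 23.0 and 21.1 CPM in WT libraries. Eln rose by 1.24 (SE 0.10, adjusted p = 9.54e-11) in RIPK3-KO with the other groups overlapping, and Fbn1 rose by 0.49 (SE 0.09, adjusted p = 4.01e-05) in RIPK3-KO and fell by 0.33 (SE 0.09, adjusted p = 0.00376) in Villin-cre RIPK3fl/fl. Of the exon bases of Fbn1, 20.1% overlap Gm9913 on the opposite strand, and whether the counting used strand is not given in the sources used here. Lox, the oxidase that starts the cross-linking of collagen and elastin, went the other way. It had 4.33, 4.67 and 4.42 CPM in RIPK3-KO, 1.56, 1.79 and 2.15 CPM in Villin-cre RIPK3fl/fl and 7.09, 5.99 and 7.28 CPM in WT libraries. The groups do not overlap, with Lox at -0.60 (SE 0.17, adjusted p = 0.00431) in RIPK3-KO and -1.88 (SE 0.19, adjusted p = 6.97e-09) in Villin-cre RIPK3fl/fl against WT.

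**Figure D3:**
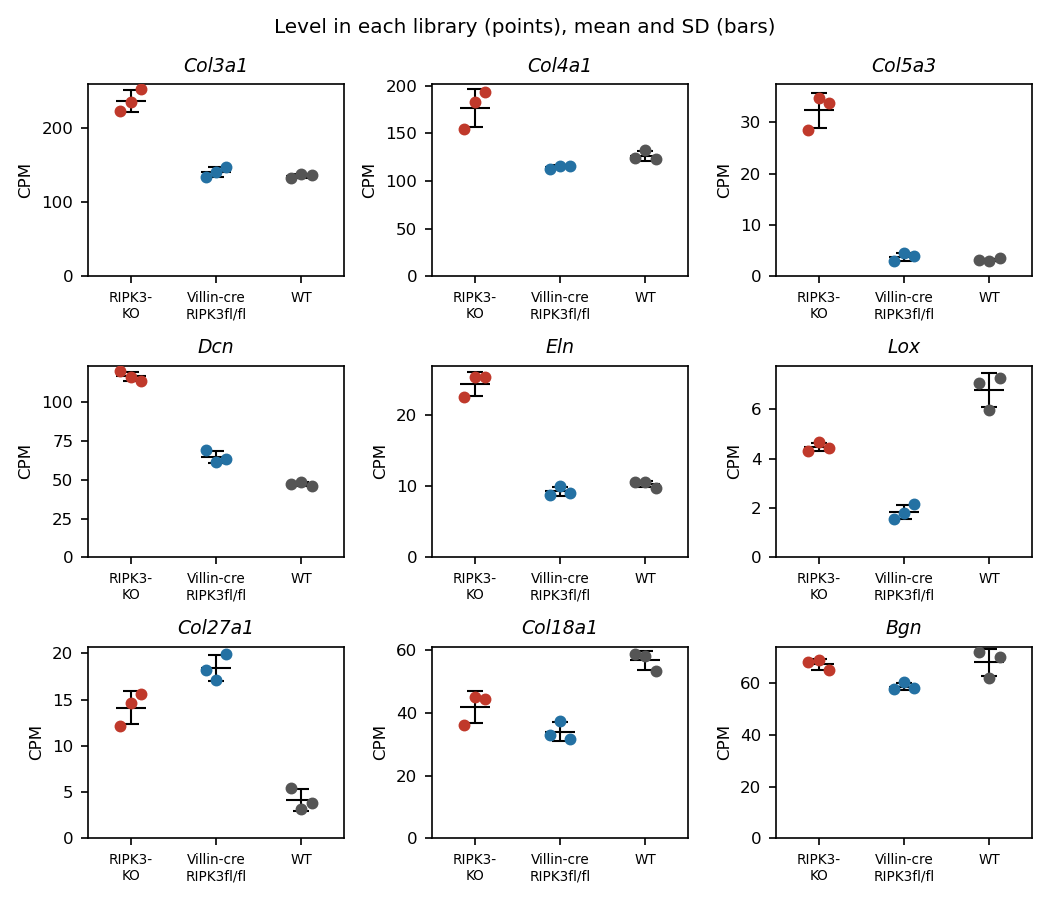
CPM of 9 members (vertical axes from 0) in each library of RIPK3-KO (left), Villin-cre RIPK3fl/fl (middle) and WT (right), as points with the mean and SD over 3 libraries as bars. Col3a1, Col4a1, Col5a3, Dcn and Eln are highest in RIPK3-KO, Col27a1 is highest in Villin-cre RIPK3fl/fl, Lox and Col18a1 are highest in WT, and Bgn overlaps between RIPK3-KO and WT.

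The glycoproteins rose in RIPK3-KO as a group, 3 of 3, beside 27.3% of all tested genes called higher. Sparc, a collagen-binding protein of basement membrane and stroma, had 199, 197 and 193 CPM in RIPK3-KO, 94.3, 94.3 and 101 CPM in Villin-cre RIPK3fl/fl and 104, 96.7 and 102 CPM in WT libraries. Fn1 (fibronectin, the adhesive protein that integrins bind) had 125, 157 and 155 CPM in RIPK3-KO, 77.0, 86.2 and 90.0 CPM in Villin-cre RIPK3fl/fl and 95, 89.9 and 89.3 CPM in WT libraries. For both, the RIPK3-KO libraries lie above the rest, by 0.96 (SE 0.05, adjusted p = 9.14e-15) and 0.67 (SE 0.08, adjusted p = 1.85e-06) against WT, and the other groups overlap. Postn (periostin) had 27.9, 28.8 and 29.5 CPM in RIPK3-KO, 14, 17.1 and 18.9 CPM in Villin-cre RIPK3fl/fl and 13.8, 13.3 and 13.9 CPM in WT libraries. It rose by 1.07 (SE 0.10, adjusted p = 7.38e-10) in RIPK3-KO and by 0.29 (SE 0.10, adjusted p = 0.0179) in Villin-cre RIPK3fl/fl, the last call lost without Villin-cre RIPK3fl/fl replicate 3 or WT replicate 2, with adjusted p from 0.00127 to 0.14. Vim had 173, 155 and 158 CPM in RIPK3-KO, 84.3, 82.6 and 75.1 CPM in Villin-cre RIPK3fl/fl and 84.2, 87.9 and 92.5 CPM in WT libraries, a rise of 0.88 (SE 0.06, adjusted p = 9.16e-13) in RIPK3-KO with the other groups overlapping.

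Per length, on the deposited TPM scale, Vim, Sparc and Dcn were the top 3 members in every group. Vim had a median of 163 TPM in RIPK3-KO, 71.1 TPM in Villin-cre RIPK3fl/fl and 93.2 TPM in WT libraries, Sparc 139, 57.2 and 74.4 TPM, and Dcn 132, 63.1 and 55.7 TPM in the same order of groups. Among collagens the highest median TPM belonged to Col4a1, with 63.1 TPM in RIPK3-KO, 34.0 TPM in Villin-cre RIPK3fl/fl and 43.7 TPM in WT libraries. Col3a1 followed in RIPK3-KO with 57.0 TPM, against 29.2 TPM in Villin-cre RIPK3fl/fl and 33.9 TPM in WT libraries. Col6a1 had 52.7, 31.5 and 33.3 TPM in that order of groups, and Col4a2 47.0, 23.6 and 32.1 TPM. TPM carry no TMM scaling between libraries, so they rank genes within a group and do not measure change between groups. Col6a1, lower by TPM in Villin-cre RIPK3fl/fl than in WT, had a tested log2 fold change of 0.20. Sparc, also lower by TPM, had -0.07 and was not called.

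The balance of chains was compared as the log2 ratio of the counts of 2 genes within a library, which does not depend on scaling between libraries. Across 6 pairs and 3 comparisons, the exact 2-sided permutation test of 3 against 3 libraries gave no p below 0.1, the smallest it can give, or 0.3 after Benjamini-Hochberg adjustment over the 18. For Col1a1 over Col3a1 the ratio was -2.02, -1.61 and -1.84 in RIPK3-KO, -1.37, -1.37 and -1.46 in Villin-cre RIPK3fl/fl and -1.20, -1.30 and -1.27 in WT libraries. The ratio was lowest in RIPK3-KO (difference from WT -0.57, exact p = 0.1), and no group overlaps another. For Col5a1 over Col5a2 the mean ratio was 0.10 ± 0.15 in RIPK3-KO, 0.14 ± 0.12 in Villin-cre RIPK3fl/fl and -0.24 ± 0.14 in WT libraries (SD, n = 3 each), so both deletions lie above WT (exact p = 0.1 each). For Col6a1 over Col6a2 the differences from WT were 0.04 in RIPK3-KO (exact p = 0.4) and -0.03 in Villin-cre RIPK3fl/fl (exact p = 1), and Col3a1 made up between 15.4% and 20.5% of all collagen counts in a library.

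Other matrix genes were taken as lists, whose counts stand beside 27.3% of all tested genes called higher and 28.1% lower in RIPK3-KO, and 27.2% higher and 28.4% lower in Villin-cre RIPK3fl/fl against WT. Of 29 tested genes that process collagen, 15 rose and 3 fell in RIPK3-KO, and 7 rose and 5 fell in Villin-cre RIPK3fl/fl against WT. That is 51.7% higher in RIPK3-KO and 24.1% in Villin-cre RIPK3fl/fl, the second below the share of all genes. Serpinh1, the collagen chaperone of the endoplasmic reticulum, averaged 93.5 ± 4.41 CPM in RIPK3-KO, 49.5 ± 2.22 CPM in Villin-cre RIPK3fl/fl and 34.8 ± 2.92 CPM in WT libraries (SD, n = 3 each). Bmp1, which trims procollagen, averaged 22.5, 16.9 and 11.7 CPM in the same order of groups, and its enhancer Pcolce 14.7, 11.1 and 7.72 CPM. The cross-linking enzyme Loxl2 fell, like Lox, with log2 fold changes of -0.45 (SE 0.10, adjusted p = 0.000893) in RIPK3-KO and -0.63 (SE 0.11, adjusted p = 3.02e-05) in Villin-cre RIPK3fl/fl. Adamts2, which removes the amino propeptide, had 8.97 ± 0.605 CPM in RIPK3-KO and 3.31 ± 0.455 CPM in Villin-cre RIPK3fl/fl.

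Of 15 genes that accompany elastic fibres, 12 rose and none fell in RIPK3-KO, and 6 rose and 1 fell in Villin-cre RIPK3fl/fl. Mfap5, a microfibril protein, had 4.62 ± 1.22 CPM in RIPK3-KO and 0.488 ± 0.179 CPM in WT libraries, and Fbln2 had 17.8 ± 1.53 and 5.07 ± 0.371 CPM. Of 27 tested proteoglycans and other interstitial genes, 18 rose and 4 fell in RIPK3-KO, and 16 rose and 4 fell in Villin-cre RIPK3fl/fl. Ogn (osteoglycin) averaged 33.8 ± 1.73 CPM in RIPK3-KO, 16.1 ± 1.46 CPM in Villin-cre RIPK3fl/fl and 5.70 ± 0.56 CPM in WT libraries, whereas Thbs1 (thrombospondin) fell to 36.0 and 32.8 CPM in the deletions, against 56.5 CPM in WT. Of 25 basement membrane genes other than collagens, 12 rose and 5 fell in RIPK3-KO, and 6 rose and 8 fell in Villin-cre RIPK3fl/fl, where 24% higher and 32% lower are near the shares of all genes. Within the laminins, Lama3 rose to 70.1 ± 4.8 CPM in RIPK3-KO and 24.2 ± 1.18 CPM in Villin-cre RIPK3fl/fl, against 16 ± 1.87 CPM in WT.

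Of 29 matrix receptors tested, 10 rose and 11 fell in RIPK3-KO and 7 rose and 15 fell in Villin-cre RIPK3fl/fl against WT. The shares called higher, 34.5% and 24.1%, were near the 27.3% and 27.2% of all tested genes, and those called lower were 37.9% and 51.7%, beside 28.1% and 28.4%. Cd44, the hyaluronan receptor, fell to 41.7 ± 1.57 CPM in RIPK3-KO and 33.9 ± 1.42 CPM in Villin-cre RIPK3fl/fl, against 82.4 ± 2.3 CPM in WT, and the collagen receptor Ddr2 rose to 31.4 ± 1.22 CPM in RIPK3-KO, against 15.2 ± 1.15 CPM in WT. Of 23 genes of TGF-beta signalling, a main inducer of collagen genes, 6 rose and 8 fell in RIPK3-KO, and 6 rose and 7 fell in Villin-cre RIPK3fl/fl. The share called higher, 26.1% in each, was near that of all tested genes. Tgfbr3, a co-receptor, rose to 15.5 ± 0.259 CPM in RIPK3-KO, against 6.65 ± 1.12 CPM in WT, and the ligand Tgfb3 to 7.49 ± 0.962 CPM, against 3.86 ± 0.157 CPM. Smad6, an inhibitor of signalling in this family, rose to 15.4 ± 2.79 CPM in Villin-cre RIPK3fl/fl, against 7.21 ± 0.244 CPM in WT. Tgfbr2, the ligand-binding receptor, fell to 49.7 ± 5.3 CPM in RIPK3-KO and 37.9 ± 0.531 CPM in Villin-cre RIPK3fl/fl, against 80.9 ± 2.53 CPM in WT. Ctgf, a target, fell by 1.04 (SE 0.12, adjusted p = 2.98e-08) on the log2 scale in Villin-cre RIPK3fl/fl.

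Markers of cells that make matrix, or that could come with the tissue, also differed between the groups, and several lists did not follow the order of the members. Their counts against WT stand beside 27.3% of all tested genes called higher and 28.1% lower in RIPK3-KO. In Villin-cre RIPK3fl/fl the shares of all tested genes were 27.2% and 28.4%. Of 20 smooth muscle genes, 20 rose in RIPK3-KO, and 17 rose and 1 fell in Villin-cre RIPK3fl/fl, and they summed to between 5421 and 5950 CPM in RIPK3-KO, 4655 and 4820 CPM in Villin-cre RIPK3fl/fl and 2302 and 2366 CPM in WT libraries. Of 14 adipocyte genes, 13 rose and none fell in RIPK3-KO, and 13 rose and 1 fell in Villin-cre RIPK3fl/fl, and they summed to between 6819 and 6911, 579 and 596, and 399 and 418 CPM in the same order of groups. Of 20 exocrine pancreas genes, 19 fell and 1 rose in RIPK3-KO, and 19 rose in Villin-cre RIPK3fl/fl, with sums of 1087 to 1210, 23859 to 25719 and 3900 to 3983 CPM. The 1 that rose, Zg16, averaged 996 ± 53 CPM in RIPK3-KO and 836 ± 13.4 CPM in WT libraries. Zg16 thus made up most of the RIPK3-KO sum, which understates the fall of the others. The median log2 fold change of the list was -4.53 in RIPK3-KO against WT. Summed smooth muscle genes were 2.46 times WT in RIPK3-KO and 2.01 times WT in Villin-cre RIPK3fl/fl. Summed fat genes were 16.7 and 1.43 times WT in the same order, and the summed members 1.57 and 1.03 times. Scd1, at 4382 ± 126 CPM, made up most of the fat sum in RIPK3-KO. The median log2 fold change of the 14 fat genes was 5.29 in RIPK3-KO and 1.30 in Villin-cre RIPK3fl/fl against WT. Fat depots and vessels also express type IV, V and VI collagens, Sparc and Lum, and the part of any of these cell types in the members' values was not tested.

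**Figure D4:**
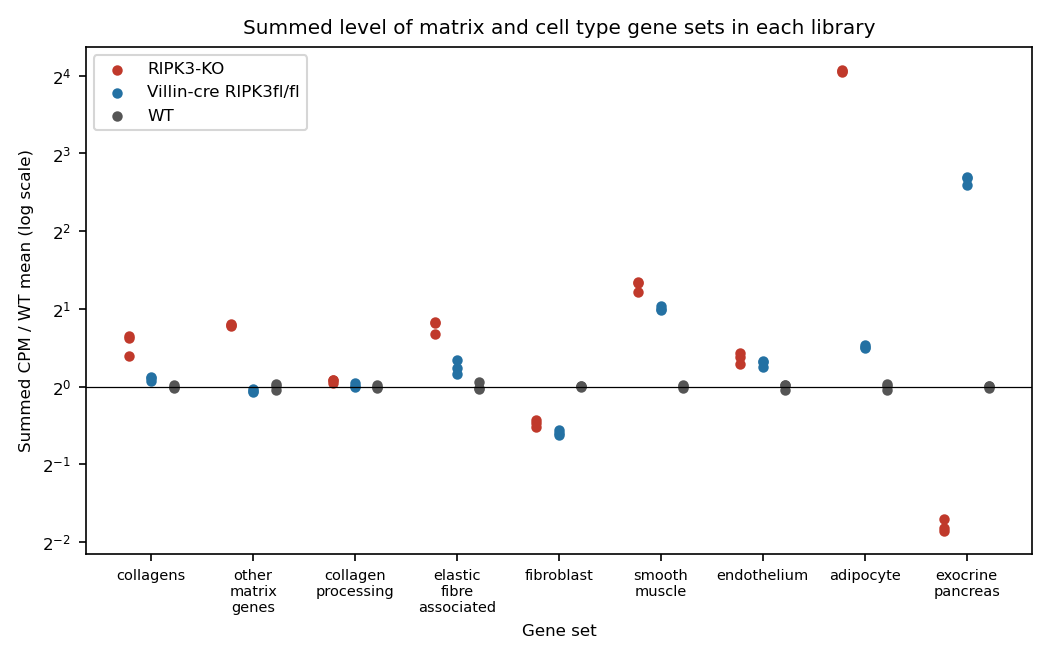
Summed CPM of each gene set in each library, divided by the WT mean (log axis), for RIPK3-KO (red), Villin-cre RIPK3fl/fl (blue) and WT (grey). The collagens stand above WT in RIPK3-KO (1.48 times) and slightly in Villin-cre RIPK3fl/fl (1.07 times), the other matrix genes stand above WT in RIPK3-KO (1.73 times) and not in Villin-cre RIPK3fl/fl, smooth muscle stands above WT in both deletions, adipocyte genes are 16.7 times WT in RIPK3-KO, and exocrine pancreas genes are 6.32 times WT in Villin-cre RIPK3fl/fl.

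Of 20 fibroblast markers, 10 rose and 2 fell in RIPK3-KO, and 7 rose and 3 fell in Villin-cre RIPK3fl/fl, or 50% and 35% called higher beside 27.3% and 27.2% of all tested genes. Their sum was lower than WT, at 602 to 637 CPM in RIPK3-KO, 559 to 586 CPM in Villin-cre RIPK3fl/fl and 857 to 865 CPM in WT libraries. Ly6a, also an interferon-induced gene of other cells, made up most of the WT sum and averaged 93.6, 73.1 and 541 CPM in the same order of groups. Clec3b rose to 16.3 ± 1.74 CPM in RIPK3-KO and 8.26 ± 1.07 CPM in Villin-cre RIPK3fl/fl, against 1.34 ± 0.224 CPM in WT. Thy1 fell to 10.8 ± 0.572 CPM in RIPK3-KO and 4.69 ± 1.46 CPM in Villin-cre RIPK3fl/fl, against 14.6 ± 1.42 CPM in WT. Ccl11 fell in Villin-cre RIPK3fl/fl, to 6.76 ± 1.97 CPM against 9.21 ± 0.718 CPM in WT. The list shares Dpt, Mfap5 and Ddr2 with the matrix lists. Of 18 endothelial genes, 12 rose in each deletion and 1 fell in Villin-cre RIPK3fl/fl, and they summed to 294 to 323, 286 to 301 and 234 to 244 CPM.

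Of 8 mesothelial markers, 5 rose and 2 fell in RIPK3-KO and 5 fell in Villin-cre RIPK3fl/fl, and the 2 most abundant, Krt8 and Krt19, are also made by epithelium, with sums of 4227 to 4504, 4707 to 5270 and 5650 to 5725 CPM. Msln, which marks mesothelium, averaged 11.4 CPM in RIPK3-KO, 1.64 CPM in Villin-cre RIPK3fl/fl and 7.87 CPM in WT libraries. Of 15 enteric glia and neuron genes, 8 rose and 1 fell in RIPK3-KO, and 7 rose and 3 fell in Villin-cre RIPK3fl/fl, with sums of 77.2 to 86.5, 59.8 to 62.3 and 59.3 to 60.4 CPM. Enterocyte genes, which mark the labelled tissue, summed to 48712 to 50873, 45138 to 48331 and 29439 to 29558 CPM, with 13 and 12 of 16 higher and 2 lower in each deletion. Of 14 tested leukocyte genes, 1 rose in each deletion and 7 fell in RIPK3-KO and 8 in Villin-cre RIPK3fl/fl, with sums of 126 to 134, 120 to 123 and 170 to 178 CPM. All these counts stand beside 27.3% of all tested genes called higher and 28.1% lower in RIPK3-KO, and 27.2% and 28.4% in Villin-cre RIPK3fl/fl. No marker of these cell type lists was at 0 counts in every library of a group.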

How the data were processed

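RNA from mouse small intestine was measured in 9 libraries. Per the labels' protocols, ribosomal RNA was removed and stranded libraries were built, and the submitters' processing notes name Trimmomatic, STAR, HTSeq and DESeq2 and the build mm10. The authors deposited whole-number read counts per gene and library, which are not normalized, with RPKM and TPM values per gene and library, which are scaled to length and depth. The deposited RPKM values gave no value printed here and were only an alternative to TPM for the highest members. The deposited TPM values set levels of different genes side by side, and were an alternative to counts for the chain ratios. Of the table, 1 line was not analysed here.

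Counts were tested in edgeR 4.0.16 (R 4.3.3) with filterByExpr, TMM scaling, robust quasi-likelihood F tests, a single fit of the 3 groups over all 9 libraries (6 residual degrees of freedom) and Benjamini-Hochberg adjustment over 16539 genes. CPM are counts over TMM-scaled library size, errors are SD over 3 libraries, and tests are 2-sided. The depth was 25375499 to 41038990 counts. Gene positions and overlaps came from GENCODE M21 and promoters from RefSeq. Replicates differed by more than sampling noise, so none was merged. Alternatives were RLE and upper-quartile scaling, TMM without marker lists, 2 other filters, DESeq2 1.42.0, limma-voom 3.58.1, a replicate block, fits of 2 groups and leaving out each library.

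The members and lists were chosen with earlier results of these data known, and 2 list genes were not analysed here. Any member could be named, with values per library for 16 of them fixed by name and for up to 6 higher and 6 lower called members of the largest fold change per comparison (mean of at least 0.5 CPM). From each list, up to 3 higher and 3 lower called genes of smallest p could be named.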

Additional observations from a re-analysis of the deposited data

How the results depend on the processing

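Across 18 alternatives, 27 of the 35 members called in RIPK3-KO against WT, 18 of 23 in Villin-cre RIPK3fl/fl against WT and 25 of 32 in RIPK3-KO against Villin-cre RIPK3fl/fl were called under every alternative that tested them. Of 2566 values of single genes, 79 lost and 25 gained a call, and no called value changed sign, although 45 values called in neither fit did. Leaving out 1 library each gave 27 to 32 higher and 2 to 4 lower members in RIPK3-KO against WT, 14 to 19 higher and 5 to 8 lower in Villin-cre RIPK3fl/fl against WT, and 22 to 25 higher and 4 to 7 lower between the deletions. The 5 lower members of Villin-cre RIPK3fl/fl against WT became 8 with no filter beyond 1 count and 8 without RIPK3-KO replicate 1, and the 7 lower members between the deletions became 4 without Villin-cre RIPK3fl/fl replicate 3. The cause was not tested. With DESeq2 the median over all genes in Villin-cre RIPK3fl/fl against WT was 0.094.

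With the replicate number as a block, 31 members were higher and 3 lower in RIPK3-KO against WT, 17 higher and 6 lower in Villin-cre RIPK3fl/fl against WT, and 25 higher and 7 lower between the deletions. Libraries with the same number correlated between -0.05 and 0.14 after removal of group means, and 3 of 9 correlated best with a library of the same number, and samples share only a number.

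Depth limits the members under about 1 CPM, such as Col11a1, Col9a2 and Col24a1, whose SE exceeded 0.5 on the log2 scale. With 3 libraries per group, the exact tests of chain ratios could not go below 0.1.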
